A study of Mus musculus with 40 samples.

Results

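The 7 genes described here are less studied genes of the mouse cortex, and they were chosen by a change between head-impact and sham libraries that was small and went one way in earlier results of these same data. They are Tut7, Igsf11, Gtdc1, Pdzd2, Fam120c, D430019H16Rik and 6330403K07Rik. All 7 listed symbols were found, each with a single RefSeq transcript row, so the set holds 7 of the 6831 transcripts and 7 of the 5863 gene symbols in the table. The rule gave no numeric threshold, so there are no members just inside or just outside one, and every transcript in the table entered the fit without a filter on low values. Because the genes were selected on the impact contrasts, their differences between HF-HI and sham are given as descriptions with no test.

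RNA was sequenced from the cortex of male C57BL/6 mice aged 12 weeks. High-frequency head impact (HF-HI) is a closed-skull model in which anaesthetised mice receive repeated mild impacts over several days, and sham mice are handled and anaesthetised in the same way without an impact. Each mouse received an intraperitoneal injection of saline or memantine, a drug that blocks NMDA-type glutamate receptors, every day 1 h before its session, and tissue was taken 24 h after the last session. This gave 4 groups of 10 labelled libraries, namely sham and HF-HI under saline, and sham and HF-HI under memantine. The design text states 4 samples per group, whereas 40 are labelled. All groups shared strain, sex, age and the daily injection, and no label gives a sequencing batch. No label states that the libraries of a group came from separate animals, so the spread between them may be in part technical.

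The genes have different known roles. Tut7 encodes a terminal uridylyltransferase, an enzyme that adds uridines to the ends of RNAs. It marks messenger RNAs for decay and acts on precursors of let-7 microRNAs. Igsf11 encodes a cell adhesion protein of the immunoglobulin superfamily that binds the postsynaptic scaffold PSD-95 and AMPA-type glutamate receptors. Gtdc1 is named for a domain that resembles those of glycosyltransferases. Pdzd2 encodes a large protein with several PDZ domains, modules that bind the ends of other proteins, and is related to pro-interleukin 16. Fam120c lies on the X chromosome and is a paralogue of Fam120a and Fam120b. D430019H16Rik and 6330403K07Rik carry only clone-based names.

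The deposited values are variance-stabilised counts on a log2 scale. They were converted back to normalised read counts, which is the count scale used below unless the deposited scale is named. Summed reads per library ran from 13322404 to 17529644. Rare transcripts were not in the table, whose lowest mean count was 549.2. Mean counts of the 7 genes ran from 913 for Igsf11 to 2715 for Pdzd2, and counting error alone gave a coefficient of variation of 1.91% to 3.30%. Of 15 markers of cortical excitatory neurons, 12 were in the table, among them Slc17a7 and Tbr1, and their summed count ran from 45508 to 75235. None of 5 blood markers was in the table. Markers of other brain parts were uneven between libraries. The 1 choroid plexus transcript in the table ran from 74.5 in saline sham to 22031 in memantine sham. The summed count of 4 thalamus marker transcripts ran from 3837 to 11317, both in saline HF-HI.

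Gene structure differed widely within the set. Positions are those of the gene in mouse build GRCm38, whereas exons and codons are those of the named transcript. Tut7 (NM_153538) lies on the minus strand of chromosome 13, from 59771876 to 59823169, with 28 exons and 1474 codons. Igsf11 (NM_170599) lies on the plus strand of chromosome 16, from 38892476 to 39027159, with 7 exons and 428 codons. The RefSeq start used for its upstream sequence below, 38902345, lies inside this span. Gtdc1 (NM_172662) spans chromosome 2 from 44564412 to 44927717 on the minus strand, with 11 exons and 445 codons. Its transcript covers only the part from 44564412 to 44861622. The Pdzd2 transcript (NM_001081064) is the longest of the set at 10756 bases, with 24 exons and 2796 codons. Its gene covers chromosome 15 from 12359711 to 12739968 on the minus strand, of which the transcript covers only the part from 12359711 to 12592556. Fam120c (NM_198105) covers chromosome X from 151342519 to 151474139 on the plus strand, with 16 exons and 1091 codons.

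Both clone-named transcripts have 2 exons and a short coding part. D430019H16Rik (NM_001252508), on the plus strand of chromosome 12 from 105453856 to 105493095, has 83 codons, and its 3′ untranslated region makes up 91.0% of its 5786 bases. 6330403K07Rik (NM_134022), on the minus strand of chromosome 11 from 71031941 to 71033617, has 121 codons in 1494 bases. Per kilobase of transcript, 6330403K07Rik had the highest level of the set at 1591 normalised counts per kb. The other 6 lay between 252 for Pdzd2 and 466 for D430019H16Rik, with Igsf11 at 265, Tut7 at 308, Gtdc1 at 394 and Fam120c at 449.5 normalised counts per kb.

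The annotation places other genes over 2 of the transcripts. An antisense gene, Etohd2, covers 1299 bases of the Tut7 exons (22.1%), and a second gene on the same strand, Gm49354, covers 228 bases (3.88%). An antisense gene, A230072E10Rik, covers 672 bases of the Fam120c exons (12.3%). The libraries were described as stranded, but the strand setting of the counting is not given in the sources used here, so reads of these partners were not told apart.

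Sequence upstream of the start is shown for Igsf11, D430019H16Rik and Tut7, since between libraries D430019H16Rik varied with Igsf11 and against Tut7 (given further on). Both relations passed their threshold narrowly by Pearson r and did not pass by Spearman rho. They passed in 19 (Igsf11) and 25 (Tut7) of 40 fits that each left out a library. Each sequence is the run of 250 bases before the RefSeq start, read 5′ to 3′ on the strand of the gene (RefSeq, GRCm38.p6). Capitals mark matches, on either strand, to any of 5 promoter motifs spelled out after the sequences, with overlapping matches each counted. The windows are chr16:38902095-38902344 (plus strand), chr12:105453606-105453855 (plus strand) and chr13:59823148-59823397 (minus strand).
Igsf11: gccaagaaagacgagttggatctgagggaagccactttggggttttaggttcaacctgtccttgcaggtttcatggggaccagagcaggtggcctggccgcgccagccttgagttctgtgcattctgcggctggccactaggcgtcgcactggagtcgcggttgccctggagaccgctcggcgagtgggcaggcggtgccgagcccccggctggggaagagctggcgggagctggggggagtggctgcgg
D430019H16Rik: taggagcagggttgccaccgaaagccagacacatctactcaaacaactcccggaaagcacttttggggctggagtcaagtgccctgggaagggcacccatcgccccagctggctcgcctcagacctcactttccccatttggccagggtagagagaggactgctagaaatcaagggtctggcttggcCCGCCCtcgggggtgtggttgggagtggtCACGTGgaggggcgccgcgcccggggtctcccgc
Tut7: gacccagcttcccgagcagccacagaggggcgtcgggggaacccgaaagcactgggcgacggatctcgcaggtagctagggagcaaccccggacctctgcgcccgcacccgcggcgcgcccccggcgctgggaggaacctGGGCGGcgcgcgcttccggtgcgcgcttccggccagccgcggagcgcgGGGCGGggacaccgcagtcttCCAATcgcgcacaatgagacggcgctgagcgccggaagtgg

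The Tut7 window held 36 CpG pairs, the Igsf11 window 16 and the D430019H16Rik window 12, against a median of 6 over 32817 promoter windows of this length. G and C made up 74.0%, 65.6% and 63.2% of these windows, against a median of 52.4%. The Tut7 window held 2 GC boxes and 1 CCAAT box, the D430019H16Rik window 1 GC box and 1 E-box, and the Igsf11 window matched none of the motifs. The GC box was searched as GGGCGG and was held by 32.7% of all windows of this length. The letters CACGTG of the E-box were present in 6.02% of them. For the CCAAT box, searched under its own name, the share was 33.8%. A CRE core, written TGACG, occurred in 17.7% of the windows. The last motif searched was the TATA box, with the letters TATAAA, which 12.4% of them held. A match describes letters only, and not a site in use.

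Tut7 and Gtdc1 were the genes with higher counts in HF-HI. Tut7 had a lowest, median and highest count of 1681, 1748 and 1808 in saline sham and of 1799, 1884 and 2018 in saline HF-HI. The ranges overlapped only at their ends, and 7 of the 10 saline HF-HI libraries lay above every saline sham library. Under memantine the Tut7 counts were 1670.45, 1723 and 1899 in sham and 1773, 1819 and 2065 in HF-HI. These ranges overlapped, and 2 HF-HI libraries lay above every sham library, although all 10 memantine HF-HI libraries lay above the mean of memantine sham. The difference in log2 counts was 0.11 ± 0.027 (SE) under saline, a change of 8.02%, and 0.074 ± 0.027 under memantine, a change of 5.24%.

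Gtdc1 counts were 835, 957 and 1031 (lowest, median, highest) in saline sham and 980.4, 1055 and 1244 in saline HF-HI. Again the ranges overlapped, with 5 HF-HI libraries above all of the sham libraries and all 10 above the sham mean. Under memantine, Gtdc1 ranged from 859.8 through a median of 962 to 1126 in sham and from 936 through 1071 to 1131 in HF-HI, where 8 of 10 libraries lay above the sham mean. Log2 counts differed by 0.19 ± 0.046 (SE) under saline, or 14.0%, and by 0.11 ± 0.046 under memantine, or 8.23%.

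The other 5 genes had lower counts in saline HF-HI than in saline sham. Pdzd2 had the widest gap, with counts of 2637, 2915 and 3353 in saline sham and of 2131, 2418 and 2822 in saline HF-HI. Of the saline HF-HI libraries, 8 lay below every saline sham library. The memantine groups overlapped almost fully for Pdzd2, with 2287, 2890.25 and 3286 in sham and 2323, 2553 and 3071 in HF-HI, but 9 of 10 HF-HI libraries lay under the sham mean. Its difference in log2 counts was −0.28 ± 0.063 (SE) under saline and −0.14 ± 0.063 under memantine, which are changes of −17.8% and −9.03%.

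Igsf11 differed by nearly the same amount in both drug arms. Its counts were 846, 920.4 and 1051 in saline sham and 803, 856 and 932 in saline HF-HI. With memantine they were 861, 982 and 1032 in sham and 819, 890.2 and 949.6 in HF-HI. In each arm all 10 HF-HI libraries lay below the mean of their sham group, while 4 of them under saline and 2 under memantine lay below every sham library. Log2 counts differed by −0.12 ± 0.038 (SE) in both arms, or −8.29% under saline and −8.30% under memantine.

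For Fam120c, D430019H16Rik and 6330403K07Rik, a gap between HF-HI and sham was present in the saline values and lay nearer 0 in the memantine values. Fam120c counts were 2360.3, 2538 and 2767 in saline sham against 2266, 2363 and 2511 in saline HF-HI. Under memantine they were 2313, 2421 and 2580.01 in sham against 2285, 2483 and 2579 in HF-HI. All 10 saline HF-HI libraries lay below the saline sham mean, whereas the memantine HF-HI libraries split into 5 below and 5 above theirs. The log2 difference in counts was −0.11 ± 0.027 (SE) under saline and 0.015 ± 0.027 under memantine.

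D430019H16Rik counts were 2464, 2815 and 3450.2 in saline sham and 2186, 2374 and 2882 in saline HF-HI, with 6 HF-HI libraries below every sham library. With memantine they were 2373, 2798 and 3131 in sham and 2384, 2653 and 2996 in HF-HI, so the HF-HI range lay inside the sham range. Its log2 difference was −0.23 ± 0.056 (SE), or −14.8%, under saline and −0.047 ± 0.056, or −3.20%, under memantine.

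6330403K07Rik counts were 2310.5, 2569 and 3034 in saline sham and 2046, 2212 and 2699 in saline HF-HI, with 8 HF-HI libraries below every sham library. The memantine sham libraries spread less, from 2176 through 2369 to 2515, and the memantine HF-HI libraries ran from 2079.8 through 2291 to 2537. The log2 difference was −0.20 ± 0.049 (SE), or −12.9%, under saline and −0.034 ± 0.049, or −2.35%, under memantine.

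**Figure D1:**
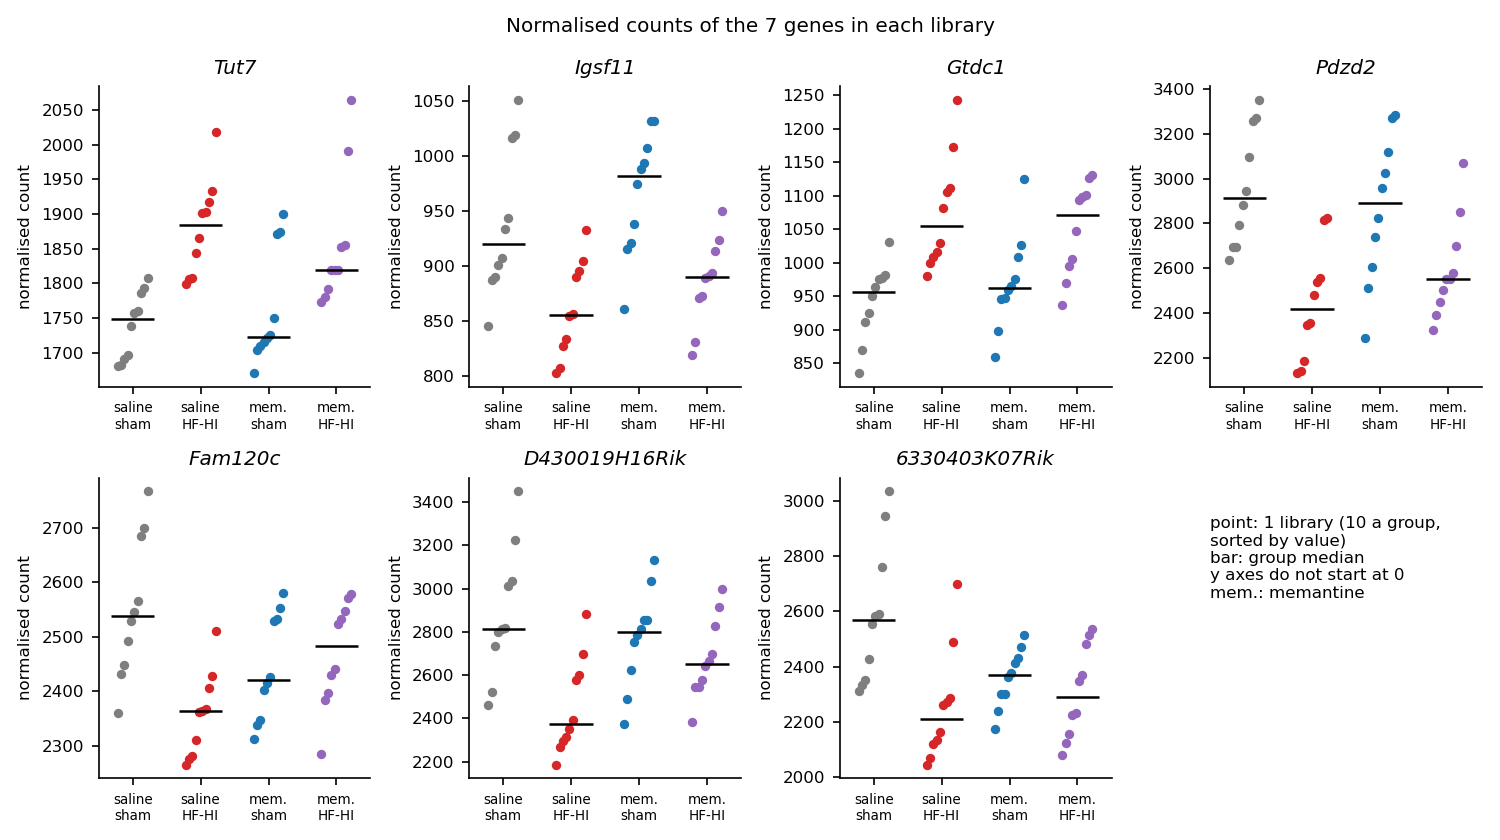
Normalised read count (linear axis that does not start at 0) of each gene in the 4 groups, with 1 point per library, 10 libraries a group and a bar at the group median. Tut7 and Gtdc1 sit higher in saline HF-HI than in saline sham and the other 5 genes sit lower, and in every panel the saline ranges overlap at least at their ends.

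At an unadjusted p under 0.05, 7 of 7 genes passed under saline (2 higher, 5 lower), where 9.53% of all transcripts did, 4.58% higher and 4.95% lower. Under memantine 4 of 7 passed (Tut7 and Gtdc1 higher, Igsf11 and Pdzd2 lower), where 4.61% of all transcripts did, 2.39% higher and 2.23% lower. Over both drug arms together 7 of 7 passed, against 9.66% of all transcripts. The set was selected on these contrasts, so nothing is read from these counts. On the deposited log2 scale the median difference of the 7 genes under saline was −0.064, beside a median near 0 (−4.7e-05) over all transcripts.

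The difference between the arms, impact under memantine minus impact under saline, is likewise a description, since the saline libraries took part in the choice. In log2 counts it was 0.13 ± 0.038 (SE) for Fam120c, 0.18 ± 0.079 for D430019H16Rik, 0.16 ± 0.070 for 6330403K07Rik and 0.15 ± 0.089 for Pdzd2. It was −0.075 ± 0.064 for Gtdc1, −0.038 ± 0.038 for Tut7 and −0.00011 ± 0.053 for Igsf11.

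**Figure D2:**
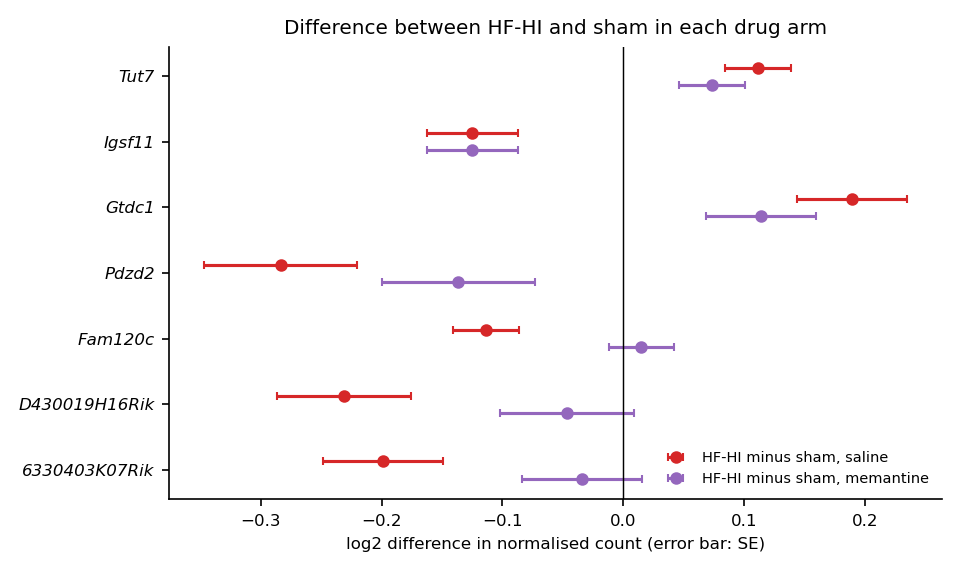
Log2 difference in normalised count between HF-HI and sham (horizontal axis, error bar SE) for each gene under saline (red) and memantine (purple), 10 libraries a group. Igsf11 has nearly the same value in both arms (−0.12), while Fam120c goes from −0.11 under saline to 0.015 under memantine.

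Whether memantine moved these genes on average over sham and HF-HI can be tested. That average of memantine against saline is independent of the impact contrasts in a balanced design. By limma on the deposited values, 0 of 7 genes passed an unadjusted p of 0.05, where 8.11% of all transcripts (554 of 6831) did, and 0 of 7 passed an adjusted p of 0.1, where 1 transcript of the table did. Igsf11 had the smallest p, with a difference of 0.016 ± 0.010 (SE) on the deposited scale (95% interval −0.0050 to 0.037, p = 0.131, Benjamini-Hochberg adjusted p = 0.726). In counts this was 2.93% more with memantine. 6330403K07Rik had a difference of −0.028 ± 0.020 (−0.068 to 0.012, limma p = 0.170, adjusted p = 0.749), or −3.22% in counts.

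The remaining 5 genes had limma p-values between 0.409 and 0.979. Their differences on the deposited scale were 0.019 for D430019H16Rik (95% interval −0.027 to 0.066), 0.011 for Pdzd2 (−0.042 to 0.064), 0.0019 for Gtdc1 (−0.024 to 0.028), 0.0010 for Fam120c (−0.021 to 0.023) and 0.00026 for Tut7 (−0.020 to 0.020). These intervals bound the average effect of memantine and do not show that it was 0. Split into sham and HF-HI, the values for Fam120c were −4.21% in sham and 4.71% in HF-HI, for D430019H16Rik −3.88% and 9.23%, and for 6330403K07Rik −8.59% and 2.45%. In log2 counts, Fam120c had −0.062 ± 0.027 (SE) and 0.066 ± 0.027, and D430019H16Rik −0.057 ± 0.056 and 0.13 ± 0.056. 6330403K07Rik had −0.13 ± 0.049 and 0.035 ± 0.049. Values of opposite sign partly cancel in the average. The signs also differed for Tut7, Gtdc1 and Pdzd2, but not for Igsf11. The split contrasts share libraries with those that chose the genes, so they were not tested.

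**Figure D3:**
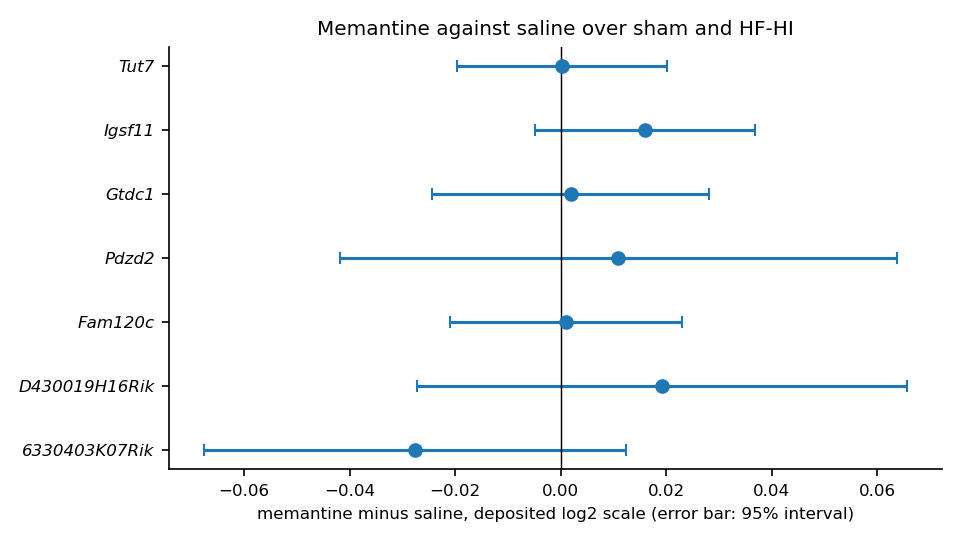
Memantine minus saline averaged over sham and HF-HI (horizontal axis, deposited log2 scale) for each gene, with 95% intervals from limma over 40 libraries. All 7 intervals contain 0, with Igsf11 at 0.016 and 6330403K07Rik at −0.028 farthest from it relative to their errors.

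The genes also varied between libraries of the same group, and by different amounts. The coefficient of variation within a group was 2.81% to 5.16% for Tut7, whose counting error was 2.34%, and 3.29% to 5.09% for Fam120c. It was 8.64% to 11.6% for Pdzd2 and 6.97% to 10.5% for D430019H16Rik. For 6330403K07Rik it was 9.81% in saline sham and 4.47% in memantine sham.

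To see which genes varied together, group means were removed and each of the 21 pairs was correlated over the 40 libraries on the deposited scale, with a two-sided permutation test of 100000 resamples within groups. Gtdc1 and 6330403K07Rik, which went opposite ways with impact, also opposed each other between libraries of a group. Their Pearson r was −0.56 (p = 0.00024, Benjamini-Hochberg adjusted over 21 pairs 0.00504) and Spearman rho was −0.60 (permutation p = 0.00011, adjusted 0.00231). The sign was the same in every group, with r at −0.63 and −0.39 in the sham and HF-HI libraries under saline and at −0.76 and −0.72 in those under memantine. Without the 2 libraries farthest from the Gtdc1 median r was −0.61, and the pair passed in 40 of 40 fits that each left out a library.

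Another 4 pairs passed an adjusted permutation p of 0.05 by r, each with a value of 0.0427, just under the threshold. Igsf11 and D430019H16Rik had r = 0.44, Pdzd2 and D430019H16Rik 0.44, Gtdc1 and Fam120c −0.44, and Tut7 and D430019H16Rik −0.39. Without the 2 farthest libraries these values were 0.43, 0.33, −0.43 and −0.39. By Spearman rho only Gtdc1 with Fam120c was still under 0.05 among these (rho −0.46, permutation p = 0.00436, adjusted 0.0354). When a library was left out, Gtdc1 with Fam120c passed in 34 of 40 fits, Pdzd2 with D430019H16Rik in 32, Tut7 with D430019H16Rik in 25 and Igsf11 with D430019H16Rik in 19. The pair Igsf11 and D430019H16Rik had r = 0.64 in sham under saline and 0.82 in sham under memantine, but −0.19 and 0.19 in the matching HF-HI groups. Tut7 with 6330403K07Rik had r = −0.35 (adjusted 0.0655) and passed by rho alone (−0.44, permutation p = 0.00506, adjusted 0.0354). The share of all pairs of transcripts in the table that reach such an r was not computed. The number of pairs that passed is therefore not read as a property of these genes.

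**Figure D4:**
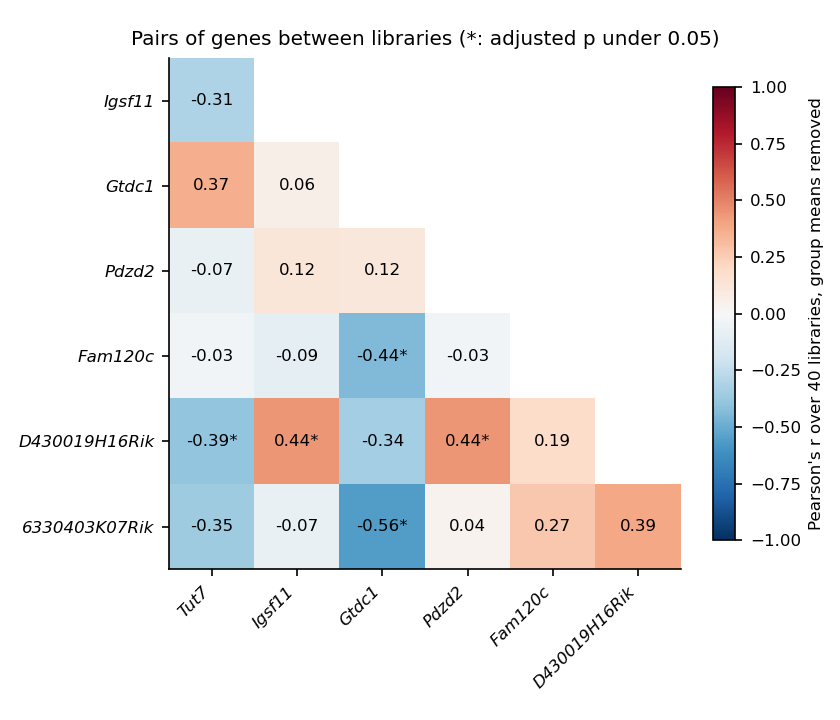
Pearson's r (colour and printed value) of each pair of genes over 40 libraries after removal of group means, with a star where the Benjamini-Hochberg adjusted permutation p is under 0.05. The pair of Gtdc1 and 6330403K07Rik, at −0.56, has the largest size of r among the 21.

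Other transcripts followed single genes of the set more closely, which is given as a description over the same 40 libraries with group means removed. 6330403K07Rik was most like Rpl3, a protein of the large ribosomal subunit (r = 0.79), then Galnt16 (0.65) and the imprinted gene Ndn (0.64), and most opposed to Apc (−0.73). Pdzd2 was most like Dscaml1, an immunoglobulin-superfamily adhesion gene (0.74), Col4a2 (0.71) and Gtf3c1 (0.71), with Psma1, a proteasome subunit, at −0.71. D430019H16Rik followed Bcr (0.73), Smpd3 (0.68) and Sowaha (0.67) and opposed Arap2 (−0.75).

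Gtdc1 was most like Prickle1 (0.68), Kcnh5 (0.68) and Clstn2 (0.67) and most opposed to Zcchc12 (−0.73). Tut7 followed Tasor2 (0.68), Evi5 (0.65) and Sec63 (0.64) and opposed P4htm (−0.67). Fam120c followed Gabrg1 (0.64), Aff4 (0.63) and Zeb1 (0.63), with Lrrc8b at −0.66. Igsf11 was most like Rasl10b (0.63), Fam120a (0.62) and Rasd2 (0.60), the last of which is in the striatal marker list, and most opposed to Pfdn5 (−0.63). These points share libraries and their depth, and the values were the extremes over all transcripts in the table.

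Markers of other cell types and of striatum, the tissue beneath the cortex, were set beside the genes, and the striatal list differed most between HF-HI and sham under saline among the 11 lists with a transcript in the table. Of 20 striatal markers 12 were in the table as 19 transcripts, among them Drd1, Ppp1r1b and Penk, while Drd2, Adora2a and Tac1 were not. Under saline their summed count ran from 36224 to 58255 in sham and from 37109 to 50865 in HF-HI. Under memantine it ran from 39064 to 58484 in sham and from 33734 to 52648 in HF-HI. The list mean differed between HF-HI and sham by −0.10 under saline and −0.030 under memantine on the deposited scale. The mean of 8 interneuron marker transcripts, from 7 of 11 listed genes, differed by −0.075 under saline and 0.0099 under memantine. Astrocyte markers differed by 0.055 and −0.030, and markers of oligodendrocyte precursors by −0.049 and −0.016, in the same order. In bulk tissue, fewer cells of a type and less RNA per cell cannot be told apart.

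Between libraries, D430019H16Rik varied with the striatal mean at r = 0.52 (permutation p = 0.0011, adjusted over 91 relations of genes with marker lists and library measures 0.1001, rho 0.50, adjusted 0.0887), which missed an adjusted 0.05. Its r was 0.49 without the 2 libraries farthest in the striatal mean, 0.48 and 0.76 in sham and HF-HI under saline, and 0.61 and 0.29 in sham and HF-HI under memantine. Igsf11 had r = 0.40 with the same mean (permutation p = 0.0144, adjusted 0.290, rho 0.41), and 0.45 without the 2 farthest libraries. Gtdc1 had r = −0.40 with the interneuron mean (permutation p = 0.0159, adjusted 0.290, rho −0.43), and −0.38 without the 2 farthest libraries. Fam120c, 6330403K07Rik and D430019H16Rik had r = 0.35, 0.34 and 0.33 with the interneuron mean, each with an adjusted permutation p of 0.309. With the striatal mean as a covariate, the impact difference of D430019H16Rik under saline went from −0.13 ± 0.032 (SE) to −0.088 ± 0.031 on the deposited scale, that of Igsf11 from −0.048 ± 0.015 to −0.032 ± 0.015, and that of Pdzd2 from −0.16 ± 0.037 to −0.13 ± 0.039. Those of Tut7 and Gtdc1 went from 0.056 ± 0.014 to 0.043 ± 0.014 and from 0.076 ± 0.018 to 0.062 ± 0.020. For Fam120c and 6330403K07Rik the main values were −0.064 and −0.11. Over all alternatives, this covariate among them, their values nearest to 0 were −0.058 and −0.087, without counting the fits that left out a library. With the striatal mean regressed out, 1 of 21 gene pairs still passed, Gtdc1 with 6330403K07Rik (r = −0.52, permutation p = 0.00069, adjusted 0.0145).

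**Figure D5:**
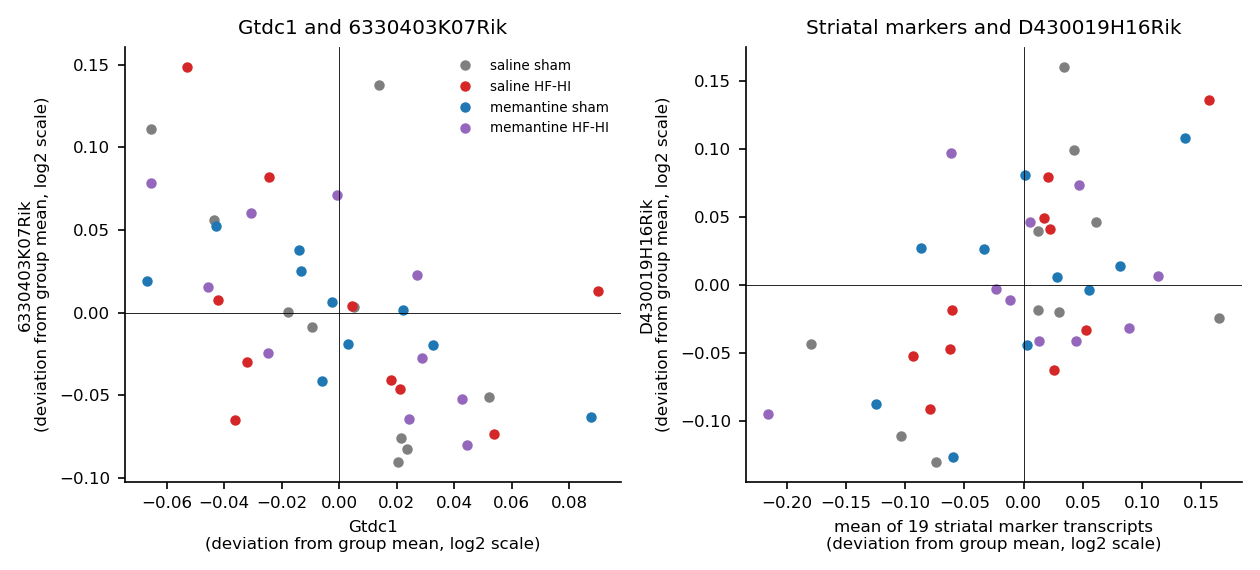
Deviation of each of the 40 libraries from its group mean (deposited log2 scale, both axes), coloured by group. Left, 6330403K07Rik against Gtdc1 (r = −0.56), and right, D430019H16Rik against the mean of 19 striatal marker transcripts (r = 0.52).

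A measure that can follow RNA quality, the balance of long and short transcripts, was set beside the genes in the same way. Transcripts were ranked by length and cut into 3 equal parts, and the mean deposited value of the shortest part was subtracted from that of the longest. The result was 0.286 ± 0.016 (SD, n = 10) in sham and 0.282 ± 0.013 in HF-HI under saline, and 0.295 ± 0.015 in sham and 0.291 ± 0.016 in HF-HI under memantine, so HF-HI and sham differed by less than the SD within a group. Between libraries of a group it had r = −0.46 with 6330403K07Rik, the shortest transcript of the set (permutation p = 0.00383, adjusted 0.174, rho −0.52, adjusted 0.0887), and 0.41 with Gtdc1 (permutation p = 0.0106, adjusted 0.290, rho 0.39). Without the 2 farthest libraries r was −0.40 and 0.30. With this measure regressed out, the r of that pair was −0.46 (permutation p = 0.00372, adjusted 0.0204). No relation of a gene with a marker list or library measure passed an adjusted 0.05, and the part of each in the results above was not tested further.

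Genes with related roles were taken from lists chosen with earlier results of these data known, and are given over both drug arms together, where 4.61% of all transcripts were higher and 5.05% lower in HF-HI at an unadjusted limma p under 0.05. None of the listed transcripts passed an adjusted p of 0.1. Of 29 transcripts of RNA tailing and decay genes, 1 was higher and 2 were lower. Xrn1, the main exonuclease that degrades RNA from its 5′ end, differed by 19.7% in counts (p = 0.0340, adjusted 0.480), and Ago2, which carries microRNAs to their targets, by −5.37% (p = 0.00239, adjusted 0.200). Cnot6l, a deadenylase subunit, had mean counts of 1004 ± 544 (SD) in sham and 584 ± 436 in HF-HI under saline, and of 820.2 ± 486 in sham and 493 ± 465 in HF-HI under memantine (p = 0.0070, adjusted 0.292). Tut4, the closest paralogue of Tut7, differed by −0.51% (p = 0.734).

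A list of immunoglobulin-superfamily adhesion genes, the family of Igsf11, also held Dlg4, which is not of that family. Of its 40 transcripts, those of Dlg4 included, 2 were higher and 3 lower. Cntn3 and Cntn4, both contactins, differed by 5.498% (p = 0.0158) and 8.33% (p = 0.0200), and Nectin1 and a transcript of Ncam1 by −14.2% (p = 0.00624) and −14.6% (p = 0.00636), with adjusted limma p-values between 0.275 and 0.403. The more abundant transcript of Dlg4, which encodes PSD-95, differed by −7.64% (p = 0.0542), and the other by −8.97% (p = 0.504). Dlg4 was in the list of multi-PDZ genes too. Of the 33 transcripts of that list, 0 passed in either direction over both arms by limma at an unadjusted 0.05. In the saline contrast 1 was higher, and in the memantine contrast 1. Il16, the relative of Pdzd2, was not in the table.

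Of 22 listed genes for glycosyltransferases and N-glycan assembly only 2 were in the table, and Alg2, a mannosyltransferase, differed by −3.35% (p = 0.0389, adjusted 0.5004). Over both arms the Fam120c paralogues Fam120a and Fam120b differed by −2.54% (limma p = 0.0437, adjusted 0.505) and −0.66% (p = 0.713). Fam120c itself had −3.37%. By arm, Fam120a differed by −4.26% under saline (limma p = 0.0174, adjusted 0.418) and by −0.79% under memantine (p = 0.646). Fam120b differed by −3.46% and 2.23% (p = 0.165 and 0.379), and Fam120c by −7.58% and 1.03%. Of all transcripts, 9.53% under saline and 4.61% under memantine had an unadjusted p under 0.05.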

How the data were processed

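Per the submitters' processing notes reads were handled with HISAT2 and StringTie, whereas the study's methods name STAR and eXpress, both with build mm10. The deposited values, made by the authors with DESeq2, are variance-stabilised counts per RefSeq transcript on a log2 scale with a floor of 10.36 for a count of 0. That transformation was inverted here to give normalised counts. In each library 100% of values under 5000 were whole multiples (tolerance 0.05 reads) of 1 over its size factor. Size factors ran from 0.859 to 1.14. The SEs on log2 counts came from a limma fit to log2 counts and so reflect the spread between libraries. Values named as counting error cover counting error only. No libraries were alike within sampling noise.

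The members and lists were chosen with earlier results of these data known. Symbols came from RefSeq for GRCm38 (99.8% of transcripts) and exon structure from GENCODE M21. Contrasts were fitted with limma 3.58.1 under R 4.3.3 (lmFit, eBayes with a trend) on the deposited values of all 6831 transcripts, with a mean for each of 4 groups and no covariate, checked on simulated data. Thresholds were an unadjusted p of 0.05 and a Benjamini-Hochberg adjusted p of 0.1. Count tests were not used, since the deposited unit is log2. Correlations used 100000 permutations within groups (Python 3.11.15). The long against short transcript measure used 6698 transcripts with a length, and it and leaving out libraries in the correlations were added after seeing the data. Transcripts other than the members were named by rule, being the 3 most alike and the 1 most opposed per gene, the nearest paralogues and Dlg4, and up to 2 per direction and related list with the smallest p.

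Alternatives were log2 of the count plus 0.5, quantile normalisation, median centring, library weights, no trend, a replicate block, a mean count of at least 1000, sums by symbol, the striatal mean as a covariate, the long against short transcript measure as a covariate (added), only the 2 groups compared, and leaving out each library.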

Additional observations from a re-analysis of the deposited data

How the results depend on the processing

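The genes were selected on the impact contrasts, so their counts past an unadjusted p of 0.05 there, set beside 9.53% of all transcripts under saline and 9.66% over both arms, show nothing about stability. The count was 7 under saline and over both drug arms under every alternative and with any library left out, except 6 of the 6 genes left by a mean count of at least 1000, which removed Igsf11. Under memantine it was 3 or 4. For memantine against saline it was 0 throughout, replicate block included. The numbers were not taken to pair the samples. Same-numbered libraries correlated at −0.257 to 0.0952 between saline sham and saline HF-HI, with 0 of 10 pairs over 0.1, and at −0.206 to 0.437 between the memantine groups, with 2 of 10 over 0.1. Between the sham groups 3 of 10 were over 0.1 (highest 0.133), and between the HF-HI groups 1 of 10 (0.312). The replicate block gave 7, 4, 7 and 0 genes in the 4 contrasts, the same as without it.

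Some of the memantine differences near 0 changed sign, none of them past the threshold. On the deposited scale Tut7 became −0.0012 with quantile normalisation, −0.0010 with median centring, −0.00053 with library weights and −0.0047 with the long against short transcript measure as a covariate. Fam120c became −0.00013, −0.00028 and −0.00079 under the first 3 of these and −0.0013 with the striatal mean. Pdzd2 became −0.0019 with the striatal mean and −0.0067 with the length measure, and Gtdc1 −0.0082 with the length measure. Leaving out single libraries gave −0.0042 to 0.0032 for Tut7, −0.0025 to 0.0048 for Fam120c and −0.0030 to 0.0069 for Gtdc1.

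The number of correlated pairs was the least stable result. It was 5 of 21, also on log2 counts and with median centring, but 1 with the striatal mean and 8 with the length measure regressed out, and 1 to 7 when a library was left out. It was 1 without saline sham replicate 4, saline HF-HI replicate 7, memantine sham replicate 4 or memantine HF-HI replicate 2. It was 2 without saline sham replicate 10, saline HF-HI replicate 3 or memantine sham replicate 9. It was 3 without saline sham replicates 1 or 6, memantine sham replicates 6 or 7, or memantine HF-HI replicates 4, 5, 6 or 9. The cause was not tested. Depth limits the smallest spreads, such as that of Tut7 in saline sham (2.81%, with a counting error of 2.34%) and that of Igsf11 in memantine HF-HI (4.49%, with a counting error of 3.30%).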

Other observations

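Within saline HF-HI, 4 of the genes with lower counts there, Pdzd2, Fam120c, D430019H16Rik and 6330403K07Rik, varied together, with Pearson r between 0.54 and 0.90 over the 6 pairs and 10 libraries. In the other groups the same pairs had r between −0.27 and 0.36 in saline sham, −0.39 and 0.51 in memantine sham, and −0.21 and 0.58 in memantine HF-HI. Saline HF-HI replicate 1 held the highest count of that group for all 4 genes (2822, 2511, 2882 and 2699). Without it r in saline HF-HI ran from 0.17 for D430019H16Rik with 6330403K07Rik to 0.82 for Fam120c with D430019H16Rik. Igsf11, which also had lower counts in saline HF-HI, is not among these 4 genes. Over the 10 libraries its r with them ran from −0.24 to −0.18. These values were picked after they were seen, so they carry no test.

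No library passed Dixon's outlier criterion within its group for any of the 7 genes. This criterion takes each gene by itself, so it cannot show that no library stood apart. The gap of the highest or lowest library over the range of its group, examined in 28 sets of gene and group, reached 0.390 for Tut7 in saline HF-HI replicate 5, under Dixon's 95% critical value for 10 libraries.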
